A study of Bos taurus with 10 samples.

Results

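Histone lysine methyltransferases and demethylases, the enzymes that place and remove methyl groups on the lysines of histone tails, were examined in single WT and *SOX2* KO bovine early blastocysts. Members were chosen by gene symbol and a low filter, as the genes whose symbol starts with KDM, KMT, SETD, SETDB, SUV39H, EHMT, NSD or DOT1L in its numbered form and whose mean over all embryos was at least 1 normalized read count. All 43 genes in the table that carry such a symbol passed this filter, of 20112 genes in the table and 20056 averaging 1 or more. The table holds no gene with fewer than 11 reads in total, and *KDM5D*, *KDM4D*, *KDM4E* and *KDM4F* are not in it. By their best known substrate, 22 were grouped as histone methyltransferases, 16 as demethylases and 5 as other SET domain proteins. The embryos were produced in vitro from abattoir oocytes and injected as zygotes. For the 5 WT embryos the injection held only mRNA of BE3, an editor that turns C into T, and for the 5 *SOX2* KO embryos it held the same BE3 mRNA with a mixture of *SOX2* sgRNAs that write premature stop codons. The labels place collection at day 7.0 after fertilization, and the methods of the study place it later by less than a day. Each library is 1 whole embryo made by Smart-seq2, so the sample holds trophectoderm and inner cell mass together, and an injected embryo can be a mosaic of edited and unedited cells. A normalized read count here is the number of reads on a gene after division by the size factor that DESeq2 gave its embryo.

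Most of these enzymes share the SET domain, which transfers a methyl group from S-adenosylmethionine to a lysine, while DOT1L uses an unrelated fold. Methylation of H3K4 marks promoters and enhancers, that of H3K36 and H3K79 marks transcribed genes, and that of H3K9, of H3K27 and, in its higher states, of H4K20 marks silent chromatin. KDM1A and KDM1B remove methyl groups with a flavin cofactor, and the other demethylases carry a JmjC domain that needs iron and 2-oxoglutarate. In early embryos these enzymes take part in the reprogramming of parental chromatin and in the silencing of retroelements.

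The libraries held between 2223670 and 5134855 reads on genes, and no pair of embryos had identical reads. *SOX2* itself had 56.5 to 93.4 normalized read counts in WT against 26.4 to 82.1 in *SOX2* KO embryos, which is -0.55 on the log2 scale (standard error, SE, 0.27, adjusted p by limma = 0.167). Read counts do not show edited bases, so this value does not check the genotype. In the study, part of the cDNA of every sequenced embryo served to check its genotype. The summed level of 8 epiblast markers was 2569 to 3069 in WT against 1214 to 1603 in *SOX2* KO embryos, and 7 of the 8 passed the adjusted p in the lower direction. By staining at this stage, the study found SOX2, NANOG and OCT4, the product of *POU5F1*, in trophectoderm as well as inner cell mass. Their genes are among the 8, so the sum is not a measure of epiblast cells alone. The sum of 6 tested primitive endoderm markers was 1151 to 1517 against 915 to 1063, and most of it was *GATA6* (958 against 871 on average, adjusted p by limma = 0.584). Of these 6 genes 4 had log2 fold changes below 0, with *PDGFRA* and *HNF4A* past the adjusted p, and *FOXA2* and *RSPO3* had 1.53 and 0.64 (adjusted p by limma = 0.081 and 0.245). The sum of 8 trophectoderm markers, nearly all *KRT8* and *KRT18*, was 24360 to 35760 against 32850 to 46360. *KRT18* was higher and *TFAP2C* lower past the adjusted p (log2 fold changes 0.73 and -0.49, adjusted p by limma = 0.0394 and 0.0352). Sums of 7 cumulus and granulosa markers were 10.4 to 60.6 and 31.2 to 71.3, and 5 of these genes, among them *FOXL2* and *AMH*, were listed at 0 in at least 1 embryo. Sums of 9 oocyte markers were 35.4 to 120 and 42.7 to 68.6, with 8 of them listed at 0 in at least 1 embryo. Only *NLRP5* of these 9 passed the adjusted p, with a log2 fold change of 1.76 on at most 6 reads in any embryo (adjusted p by limma = 0.0407).

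The comparison of *SOX2* KO with WT embryos asks which chromatin enzymes change in transcript level when *SOX2* is targeted. *KDM2B*, a demethylase of H3K36 that binds CpG islands, was lower in *SOX2* KO embryos at 0.528 of the WT mean, and it was the only 1 of the 43 genes past the adjusted p. No enzyme of the group passed the adjusted p and also moved by 2-fold or more. Genes past both limits are called here. The 43 log2 fold changes ran from -0.91 to 1.34 with a median of -0.02, and 22 were below 0 and 21 above. All 20056 tested genes had a median of 0.25, and the 11334 genes averaging 10 or more had a median of -0.04.

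By limma on log2(normalized read count + 1), 0 of the 43 were called higher, where 8.93% of all tested genes and 4.97% of those averaging 10 or more were. None were called lower, where 1.16% and 1.9% were. At an adjusted p of at most 0.05 with no limit on the fold change, 1 of 43 (2.33%) passed, against 13.6% of all tested genes and 13% of those averaging 10 or more. In the lower direction alone, that of *KDM2B*, 3.2% of all tested genes passed, and 624 of the 11334 genes averaging 10 or more. At an unadjusted p of at most 0.05 by limma, 6 members were lower and 2 higher, together 18.6% of the group. The shares were 32.4% of all tested genes and 28.9% of those averaging 10 or more. DESeq2 on reads recovered from the values put *KDM2B*, *KDM3A* and *KMT5B* past the adjusted p, all lower, and the quasi-likelihood test of edgeR put the same 3 and *KDM5A* there. A fold change on the limma scale understates changes of genes with few reads, and 2 members, *KMT5C* and *KDM8*, had at most 3 reads in some embryo. For 35 of the 43 genes the 95% interval of the log2 fold change lay within 2-fold in either direction. The other 8 were *KDM2B*, *KMT2D*, *KMT5C*, *KDM4A*, *KDM4B*, *KDM6A*, *KDM8* and *SETD9*. Whether the embryos of a group shared parents or a day of injection is not stated, so the p-values measure the spread between these embryos.

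**Figure D1:**
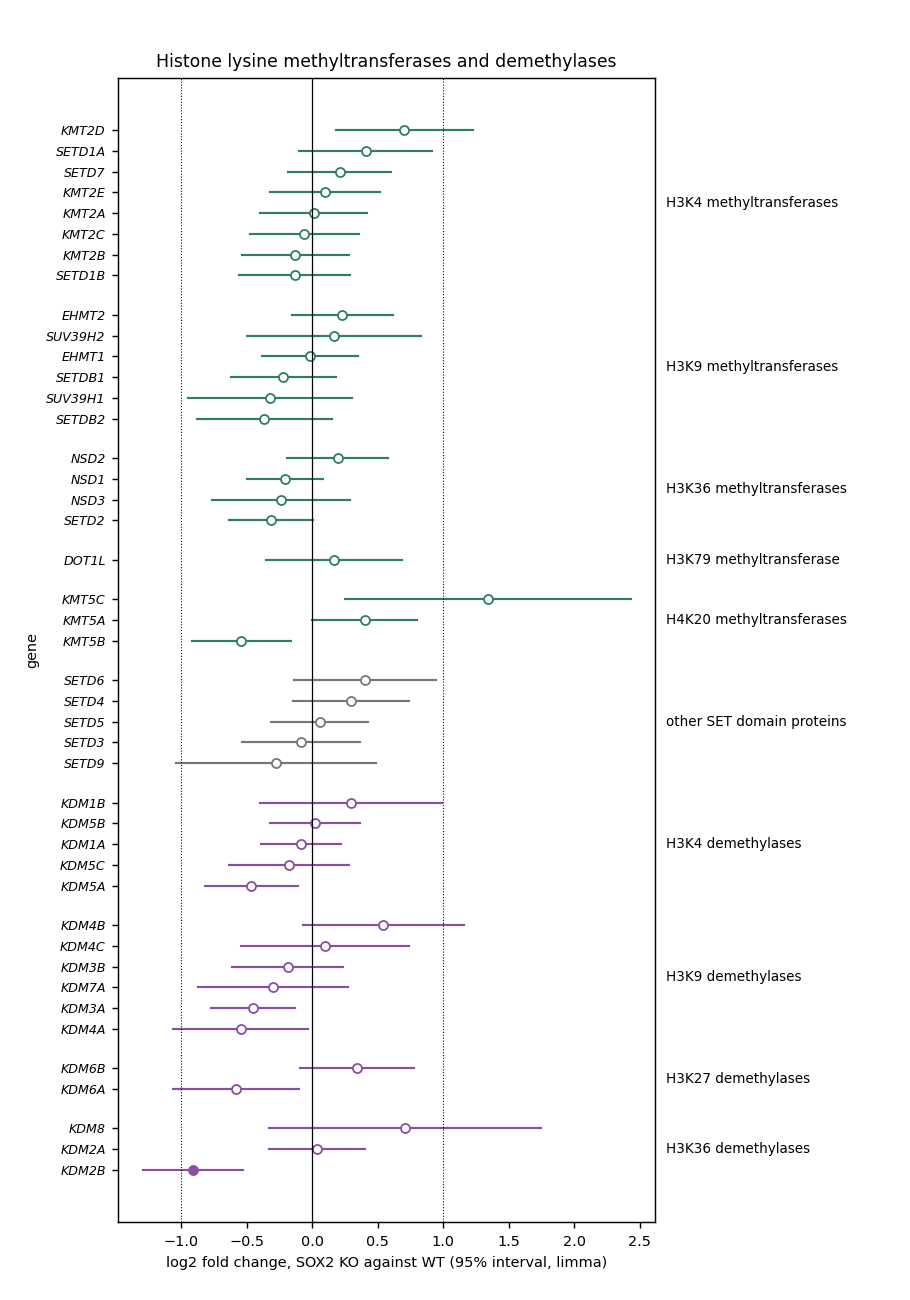
Log2 fold change of each of the 43 genes, *SOX2* KO against WT, with its 95% interval from limma, in blocks by role. Green marks methyltransferases, purple demethylases and grey other SET domain proteins, the filled point is past an adjusted p of 0.05 and dotted lines stand at 2-fold. *KDM2B* at -0.91 is the only filled point, and *KMT5C* at 1.34 has the widest interval.

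Among the H3K36 demethylases, *KDM2B* had normalized read counts of 258, 335, 193, 263 and 218 in WT embryos nc1 to nc5, and of 150, 111, 167, 105 and 135 in *SOX2* KO embryos ko1 to ko5, the order used throughout. Every *SOX2* KO embryo lay below every WT embryo. The group means were 253 ± 54.2 and 134 ± 26.2 (SD, n = 5 each), a log2 fold change of -0.91 (SE 0.18, 95% interval -1.29 to -0.53, adjusted p by limma = 0.00394). These values rest on 84 to 369 reads per embryo. KDM2B reads unmethylated CpG through a zinc finger and recruits a variant Polycomb complex there. Of the marker sums given above, those of epiblast and of primitive endoderm, the latter mostly *GATA6*, were lower in the same embryos. That of trophectoderm lay higher, with overlap. Their part in the *KDM2B* difference was not tested, and in whole embryos fewer cells of a type and less RNA per cell cannot be told apart. The share of reads on the 18S ribosomal RNA gene *RN18S1* was 26.4% to 37.0% in WT against 32.5% to 45.0% in *SOX2* KO embryos. With this share as a covariate in limma, the log2 fold change of *KDM2B* was -0.94 and its adjusted p 0.0505, while the share of all genes past the adjusted p went from 13.6% to 1.26%. As the *RN18S1* share was mostly higher in *SOX2* KO embryos, fits with this covariate, here and below, cannot fully separate it from the group.

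*KDM2A*, the closest relative of *KDM2B* with the same CpG-binding finger and the same substrate, had 522, 424, 730, 368 and 423 in WT and 412, 473, 463, 574 and 556 in *SOX2* KO embryos. The *SOX2* KO embryos lay inside the WT range, with a log2 fold change of 0.04 (95% interval -0.33 to 0.41, adjusted p by limma = 0.902). *KDM8*, a JmjC protein for which H3K36 and non-histone substrates have been described, had few reads, 3 to 17 per embryo, and a log2 fold change of 0.71 (SE 0.50, adjusted p by limma = 0.331).

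Most H3K4 methyltransferases belong to the COMPASS family, in which KMT2A and KMT2B act at developmental genes, KMT2C and KMT2D at enhancers, and SETD1A and SETD1B at most active promoters. None of the 8 genes listed here passed the adjusted p, and none separated the groups. *KMT2D* had 308, 197, 536, 265 and 146 in WT and 381, 339, 540, 395 and 528 in *SOX2* KO embryos. The WT embryo nc3 was as high as the highest *SOX2* KO embryos, and the other 4 WT embryos lay below all 5 of them. The log2 fold change of *KMT2D* was 0.70 (SE 0.25, 95% interval 0.18 to 1.23, adjusted p by limma = 0.0641), and without nc3 it was 0.96 with an adjusted p of 0.00664 by limma. Without nc5 it was 0.49 (adjusted p by limma = 0.166), and with the *RN18S1* share as a covariate 0.067 (adjusted p by limma = 0.919).

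*SETD1A* had 55.0, 44.5, 136, 83.9 and 76.7 in WT and 88.0, 111, 110, 94.5 and 88.8 in *SOX2* KO embryos. Here nc3 was the highest of all 10, and the *SOX2* KO embryos were the more uniform group. Its log2 fold change was 0.41 (SE 0.24, adjusted p by limma = 0.251), and it was 0.63 without nc3, 0.23 without nc2 and 0.19 with the *RN18S1* covariate. *KMT2C*, which had the most reads of this role, had 984, 703, 1026, 536 and 595 in WT and 607, 589, 650, 1090 and 726 in *SOX2* KO embryos. Both groups spanned nearly a doubling, and the log2 fold change was -0.06 (95% interval -0.48 to 0.36, adjusted p by limma = 0.865). *KMT2A*, *KMT2B*, *SETD1B*, *SETD7* and *KMT2E*, the last a family member with no clear activity on histones, had log2 fold changes between -0.14 and 0.21 and limma adjusted p between 0.454 and 0.98.

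The H3K9 methyltransferases comprise SUV39H1 and SUV39H2 of constitutive heterochromatin, EHMT1 and EHMT2, which work as a pair in euchromatin, and SETDB1 and SETDB2, of which SETDB1 acts with TRIM28 on retroelements. All 6 were detected in every embryo and 0 passed the adjusted p, with log2 fold changes between -0.37 for *SETDB2* and 0.23 for *EHMT2*. *EHMT1*, with the most reads of the 6, had 117, 144, 150, 99.5 and 108 in WT and 110, 111, 120, 122 and 143 in *SOX2* KO embryos. The groups overlapped throughout, and its log2 fold change was -0.02 (95% interval -0.38 to 0.35, adjusted p by limma = 0.962). The intervals of all 6 lay within 2-fold in either direction. The widest were those of *SUV39H1*, -0.95 to 0.31, and *SUV39H2*, -0.49 to 0.83.

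The H3K36 methyltransferases are SETD2, which writes the trimethyl mark behind RNA polymerase, and NSD1, NSD2 and NSD3, which write the dimethyl mark. *NSD1* had 617, 595, 518, 482 and 524 in WT and 435, 518, 446, 472 and 494 in *SOX2* KO embryos. All WT embryos but nc4 were above the highest *SOX2* KO embryo, nc3 only barely. The log2 fold change was -0.21 (SE 0.14, 95% interval -0.50 to 0.08, adjusted p by limma = 0.308). *SETD2*, *NSD2* and *NSD3* had log2 fold changes of -0.32, 0.19 and -0.24 (adjusted p by limma = 0.163, 0.482 and 0.537).

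*DOT1L*, which encodes the only known H3K79 methyltransferase, had 110, 78.6, 262, 98.7 and 84.4 in WT and 117, 123, 134, 124 and 143 in *SOX2* KO embryos. All 5 *SOX2* KO embryos were above 4 of the WT embryos and below nc3. The means, 127 ± 76.4 and 128 ± 10.3 (SD, n = 5 each), were close while the spread was wider in WT, and the log2 fold change was 0.17 (SE 0.25, adjusted p by limma = 0.67). Without nc3 it was 0.47 with an adjusted p of 0.0782 by limma.

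Of the H4K20 methyltransferases, KMT5A writes the monomethyl mark in the cell cycle, and KMT5B and KMT5C extend it to the higher states. *KMT5B* had 124, 116, 111, 110 and 123 in WT and 84.6, 62.1, 69.8, 87.9 and 102 in *SOX2* KO embryos. The groups did not overlap, and WT embryos were within a narrow range. The log2 fold change was -0.54 (SE 0.18, 95% interval -0.92 to -0.16), with an adjusted p of 0.0528 by limma, 0.0407 by DESeq2 and 0.0354 by edgeR. By limma it was 0.0353 without ko4, a fit in which 22.5% of all tested genes passed. It was 0.1 by limma with quantile normalization and 0.215 with the *RN18S1* covariate. *KMT5B* passed the adjusted p in 5 of 22 alternative fits. *KMT5C* had the largest log2 fold change of the whole group, 1.34 (SE 0.52, adjusted p by limma = 0.086), on 1 to 11 reads per embryo. Its values were 7.63, 1.48, 3.98, 1.55 and 2.36 in WT and 12.2, 13.2, 6.98, 4.11 and 11.5 in *SOX2* KO embryos, which overlapped. Without ko4 its log2 fold change was 1.58 (adjusted p by limma = 0.0382), and with quantile normalization 0.61. *KMT5A* lay between 60.6 and 97.9 in WT and between 81.4 and 110 in *SOX2* KO embryos (log2 fold change 0.40, adjusted p by limma = 0.159).

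Of 3 members without overlap between the groups, *KDM2B*, *KDM3A* and *KMT5B*, all were lower in *SOX2* KO embryos, that is 6.98% of the group. Among all tested genes 2.76% were lower without overlap, and among those averaging 10 or more it was 4.72%. No member was higher without overlap, where 6.41% of all tested genes and 4.54% of those averaging 10 or more were.

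**Figure D2:**
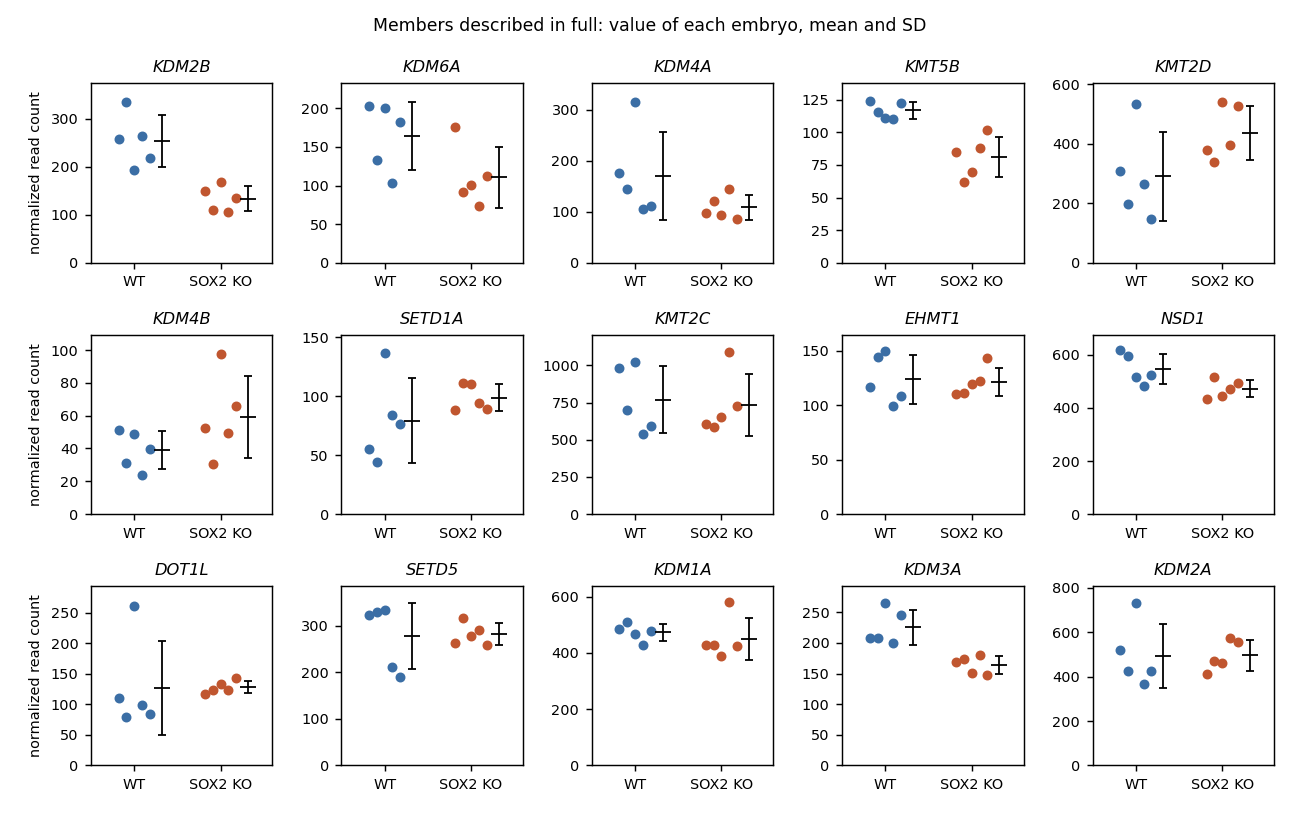
Normalized read counts (vertical axes, each from 0) of 15 members, with WT embryos in blue, *SOX2* KO embryos in orange, and the mean ± SD of each group as a black bar. *KDM2B*, *KDM3A* and *KMT5B* show no overlap between the groups, and in *DOT1L*, *KDM4A* and *KMT2D* the WT embryo nc3, the third blue point, stands above the other WT embryos.

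The H3K9 demethylases had 6 tested genes, and 0 passed the adjusted p. KDM3A and KDM3B remove the lower methyl states of H3K9, KDM4A, KDM4B and KDM4C the trimethyl state and also methylation of H3K36, and KDM7A acts on H3K9 and H3K27. *KDM3A* had 208, 208, 266, 200 and 246 in WT and 168, 173, 151, 180 and 148 in *SOX2* KO embryos. Every *SOX2* KO embryo was below every WT embryo, at 0.728 of the WT mean. The log2 fold change was -0.45 (SE 0.15, 95% interval -0.77 to -0.13), with an adjusted p of 0.0545 by limma, 0.0292 by DESeq2 and 0.0343 by edgeR. By limma it was 0.033 without ko4, 0.122 with quantile normalization and 0.348 with the *RN18S1* covariate. *KDM3A* passed the adjusted p in 6 of 22 alternative fits.

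*KDM4A* had 176, 144, 314, 105 and 112 in WT and 98, 122, 93, 145 and 86.5 in *SOX2* KO embryos. It overlapped between the groups, with nc3 far above the rest, and its log2 fold change was -0.55 (SE 0.25, adjusted p by limma = 0.134). Without nc3 it was -0.29. *KDM4B* had 51.1, 31.1, 48.7, 24.1 and 39.5 in WT and 52.3, 30.4, 97.7, 49.3 and 65.7 in *SOX2* KO embryos, and the highest value, in ko3, was more than 3 times the lowest in that group. The groups overlapped at a log2 fold change of 0.54 (SE 0.29, adjusted p by limma = 0.208), which was 0.34 without ko3 and 0.16 with the *RN18S1* covariate. *KDM4C*, *KDM3B* and *KDM7A* had log2 fold changes of 0.10, -0.19 and -0.30 (adjusted p by limma = 0.859, 0.54 and 0.464).

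The H3K4 demethylases had 5 tested genes and 0 past the adjusted p. *KDM1A*, the LSD1 enzyme of the CoREST complex, had 487, 509, 466, 428 and 476 in WT and 428, 428, 388, 581 and 424 in *SOX2* KO embryos. Apart from ko4, the *SOX2* KO embryos lay just below or below the lowest WT embryo, and ko4 was the highest of all 10. The log2 fold change was -0.09 (SE 0.15, 95% interval -0.39 to 0.22, adjusted p by limma = 0.717). *KDM5A*, which removes methylation of H3K4 at promoters, lay between 179 and 251 in WT and between 114 and 186 in *SOX2* KO embryos. Only the lowest WT embryo reached the *SOX2* KO range, and the log2 fold change was -0.47 (SE 0.17, adjusted p by limma = 0.0697, by edgeR 0.0458, by DESeq2 0.0595). The limma adjusted p was 0.0354 without ko4 and 0.299 with the *RN18S1* covariate, and *KDM5A* passed in 3 of 22 alternative fits. Its relative *KDM5B*, with means of 273 in both groups, had a log2 fold change of 0.02 (95% interval -0.32 to 0.36, adjusted p by limma = 0.948). *KDM1B*, which works in the oocyte on imprinted genes, had 7 to 38 reads per embryo and a log2 fold change of 0.30 (adjusted p by limma = 0.564).

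The other SET domain proteins act mostly outside histones, SETD3 on actin and SETD6 on RELA for example. *SETD5*, with the most reads of the 5, had 324, 331, 335, 211 and 190 in WT and 263, 317, 278, 292 and 259 in *SOX2* KO embryos. The WT embryos fell into a high set of 3 and a low set of 2 around the *SOX2* KO embryos, and the log2 fold change was 0.06 (95% interval -0.31 to 0.43, adjusted p by limma = 0.854). The 4 others, *SETD3*, *SETD4*, *SETD6* and *SETD9*, had log2 fold changes between -0.28 and 0.40 and limma adjusted p between 0.288 and 0.822.

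The X-linked members were the H3K27 demethylase gene *KDM6A*, the H3K4 demethylase gene *KDM5C* and *SUV39H1*. The sex of the embryos was not known here, so each group may hold both sexes. Embryos differed widely in *XIST*, the RNA that coats an inactive X chromosome. *XIST* had 1819, 11.9, 2326, 429 and 2144 normalized read counts in WT and 2819, 2251, 1804, 33.7 and 1267 in *SOX2* KO embryos, so that nc2 and ko4 were far below the other 8. *KDM6A* had 203, 134, 200, 103 and 183 in WT and 176, 91.1, 101, 73.1 and 112 in *SOX2* KO embryos. Its lowest value was in ko4 and, in WT, its lowest values were in nc4 and nc2, the WT embryos with the least *XIST*. The log2 fold change of *KDM6A* was -0.59 (SE 0.23, 95% interval -1.07 to -0.10, adjusted p by limma = 0.0901), and -0.65 with log2 *XIST* as a covariate (adjusted p by limma = 0.0352). Without ko1, the *SOX2* KO embryo with the most *KDM6A*, it was -0.77 (adjusted p by limma = 0.0439). Apart from the *XIST* fit, this was the only 1 of 22 alternative fits in which *KDM6A* passed. With the *RN18S1* covariate its log2 fold change was -0.78 (adjusted p by limma = 0.214).

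*KDM5C* had 190, 114, 226, 156 and 175 in WT and 206, 122, 160, 93.6 and 190 in *SOX2* KO embryos. Here too ko4 was the lowest of its group and nc2 the lowest of WT, and the group difference was a log2 fold change of -0.18 (adjusted p by limma = 0.6). With log2 *XIST* as a covariate it was -0.26 (adjusted p by limma = 0.298). *SUV39H1* had 14.8 in ko4 but 30.1 to 56.5 in the remaining embryos of its group, whereas nc2, with 44.5, lay inside the WT range of 37.3 to 48.7. Its log2 fold change was -0.32 (adjusted p by limma = 0.477), and -0.38 with log2 *XIST* as a covariate (adjusted p by limma = 0.366). The part of the X chromosome in these levels was not tested beyond the covariate. *KDM6B*, the autosomal relative of *KDM6A*, lay between 69.1 and 127 in WT and between 96.9 and 167 in *SOX2* KO embryos, with a log2 fold change of 0.34 (adjusted p by limma = 0.266).

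**Figure D3:**
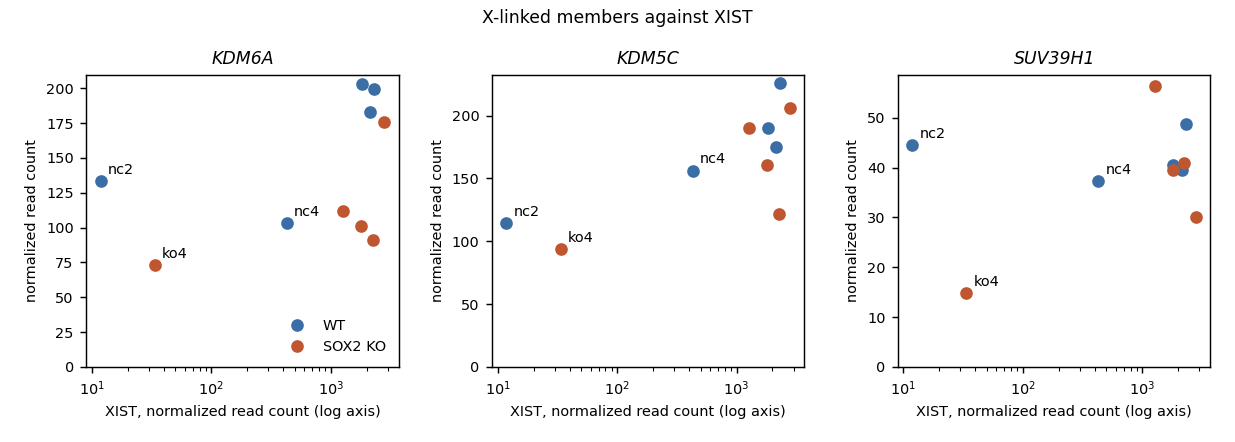
Normalized read counts of the X-linked genes *KDM6A*, *KDM5C* and *SUV39H1* (vertical axes, from 0) against *XIST* (horizontal log axis) in the 10 embryos, WT in blue and *SOX2* KO in orange. The embryo ko4, with 33.7 of *XIST*, is the lowest in all 3 panels, at 73.1, 93.6 and 14.8.

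Embryos of 1 group differed among themselves. The coefficient of variation of a member had a median of 24.0% in WT and 19.6% in *SOX2* KO embryos. The WT embryo nc3 was the highest WT embryo for 24 of the 43 members (55.8%), against 23.6% of tested genes averaging 10 or more, and it was the highest of all 10 embryos for 15 members. Against the median of the other WT embryos, nc3 had at least 1.5-fold more for 11 members, which is 25.6% against 15.8% of the genes averaging 10 or more. The largest ratios were 2.86 for *DOT1L*, 2.46 for *KDM4A*, 2.32 for *KMT2D*, 2.07 for *SETD1A*, 2.03 for *KMT5C*, which had few reads, and 1.86 for *SETD1B*. The embryo nc4 was the lowest WT embryo for 20 members (46.5%), against 18.6% of those genes. In *SOX2* KO no embryo was the highest for more than 10 members. nc3 was not the deepest library, with 3248575 reads, and its *RN18S1* share was the highest of WT at 37.0%, and the part of either in these levels was not tested.

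**Figure D4:**
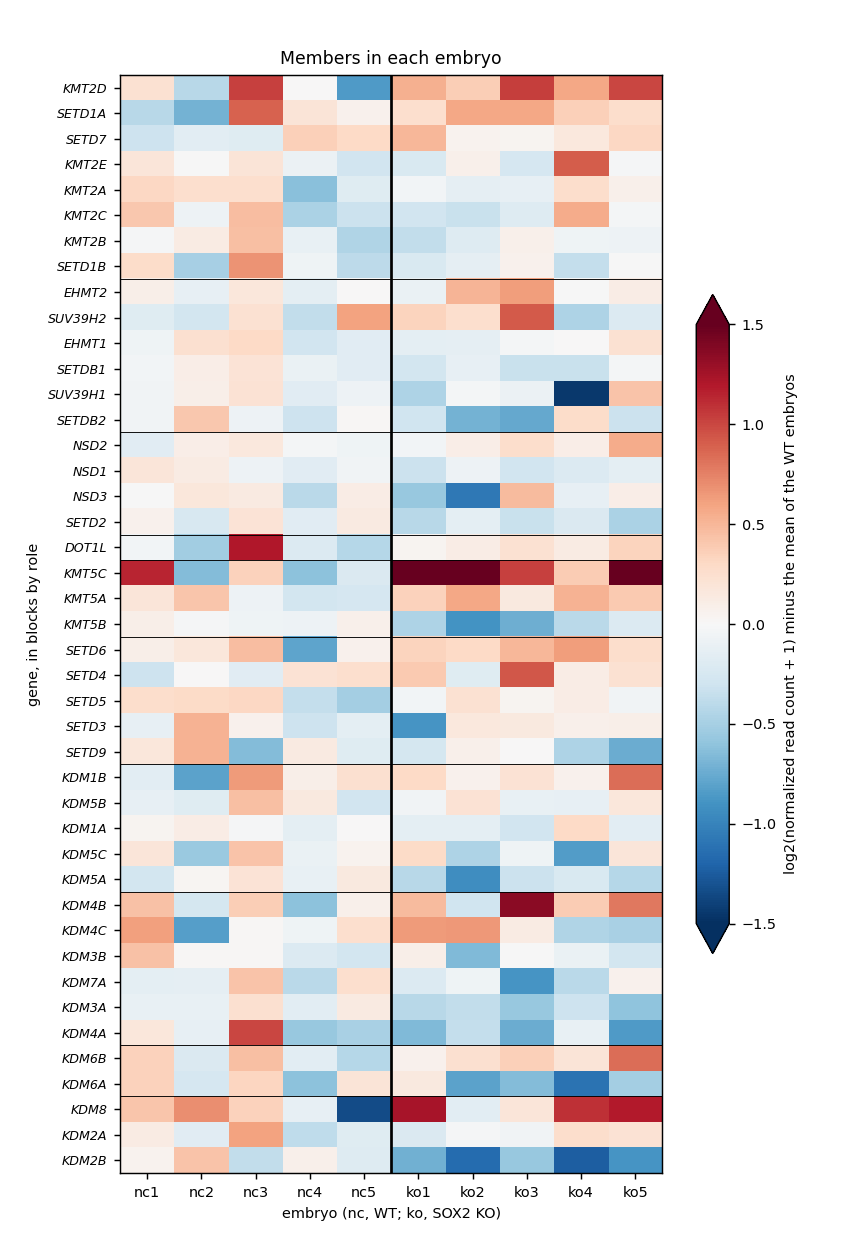
Log2(normalized read count + 1) of the 43 members minus the mean of the WT embryos (colour, red higher, capped at 1.5 either way) in each of the 5 WT and 5 *SOX2* KO embryos, in blocks by role. The column of nc3 is red for most H3K4 methyltransferases and *DOT1L*, and the bottom row, *KDM2B*, is blue in all 5 *SOX2* KO embryos.

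Close relatives were set against each other within each embryo, as differences of log2(normalized read count + 1), which do not depend on the scaling of libraries beyond the pseudocount. The 14 pairs were chosen after the values were seen, and no test was made. All 14 pairs overlapped between the groups. The difference *KDM2B* minus *KDM2A* was -1.91 to -0.34 in WT against -2.44 to -1.45 in *SOX2* KO embryos, with means of -0.94 ± 0.62 and -1.89 ± 0.43 (SD, n = 5 each). The WT embryo nc3, with much *KDM2A* and the least *KDM2B* of WT, lay inside the *SOX2* KO range. *KDM6A* minus *KDM6B* had means of 0.77 ± 0.39 in WT and -0.15 ± 0.58 in *SOX2* KO embryos, and *KMT2D* minus *KMT2C* of -1.49 ± 0.49 and -0.73 ± 0.46. *KDM4A* minus *KDM4B* had means of 2.03 ± 0.45 and 0.94 ± 0.83.

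Genes related to these enzymes were taken as 61 tested genes in 6 lists, of which 4 hold proteins of their complexes, 1 holds 17 lysine methyltransferases, demethylases and relatives under other symbols and 1 holds 9 enzymes of methyl donor and cofactor metabolism. Of these, 4 were higher and 8 lower at an adjusted p of at most 0.05, which is 19.7% of the lists against 13.6% of all tested genes and 13% of those averaging 10 or more. Called were 3 higher and 3 lower, 9.84% against 10.1% of all tested genes and 6.86% of those averaging 10 or more, and 4 of these 6 were in the list of enzymes under other symbols. With the *RN18S1* share as a covariate in limma, *PSIP1*, *GSE1* and *SMYD2* were the listed genes left past the adjusted p. Whether the 43 enzymes and these genes differ in this respect was not tested.

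COMPASS subunits and proteins that act with them had 12 tested genes with log2 fold changes below 0, from -1.13 to -0.04. Among genes averaging 10 or more, 53.1% were below 0. The list was chosen with earlier results of these data known, and its count below 0 was not tested. Of the 12 genes, 3 passed the adjusted p. *PSIP1*, whose protein LEDGF tethers KMT2A to chromatin, had 182, 274, 187, 256 and 248 in WT and 99.1, 93.8, 120, 109 and 94.6 in *SOX2* KO embryos. The groups were far apart, with a log2 fold change of -1.13 (SE 0.17, adjusted p by limma = 0.000378). *RBBP5*, a core subunit, fell without overlap from 184 ± 15.4 to 122 ± 18.2 (SD, n = 5 each, log2 fold change -0.60, adjusted p by limma = 0.0224). *PAXIP1*, found with KMT2C and KMT2D, fell from 89.5 ± 26.9 to 47.6 ± 21.3 with overlap (log2 fold change -0.96, adjusted p by limma = 0.0296). The adjusted p of *RBBP5* and *PAXIP1* exceeded 0.05 in 3 and 6 of 10 fits with 1 embryo left out, and that of *PSIP1* in 0.

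CoREST partners of KDM1A had 8 tested genes, of which *GSE1* and *HDAC2* fell and 0 were past the adjusted p in the other direction. *GSE1* had 127, 132, 176, 111 and 87.4 in WT and 60.1, 52.8, 65.1, 67.4 and 50.7 in *SOX2* KO embryos, with no overlap (log2 fold change -1.05, SE 0.20, adjusted p by limma = 0.00305). *HDAC2*, a deacetylase shared by several corepressors, fell from 217 ± 53.4 to 112 ± 25.2 (SD, n = 5 each, log2 fold change -0.94, adjusted p by limma = 0.00523). The catalytic subunit *KDM1A* was not past the adjusted p in the same fit.

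Among 9 tested genes of H3K9 methylation, *TRIM28*, the corepressor that brings SETDB1 to retroelements, fell from 960 ± 104 to 696 ± 97.0 (SD, n = 5 each, log2 fold change -0.47, adjusted p by limma = 0.0407). Its adjusted p exceeded 0.05 in 8 of 10 fits with 1 embryo left out. *WIZ*, a zinc finger partner of EHMT1 and EHMT2, had 46.6, 31.1, 81.5, 53.6 and 53.1 in WT and 93.5, 93.8, 98.8, 91.2 and 120 in *SOX2* KO embryos. It was above WT in all 5 *SOX2* KO embryos, at a log2 fold change of 0.95 (SE 0.23, adjusted p by limma = 0.0118), and kept an adjusted p of at most 0.05 in all 10 fits with 1 embryo left out. None of the 6 tested partners of DOT1L passed, and the smallest adjusted p was that of *MLLT6* at 0.0797 by limma. The same held for 9 genes of methyl donor and cofactor metabolism, with *MAT2A* at 0.0834.

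Lysine methyltransferases and demethylases under other symbols had 17 tested genes, 3 of them past the adjusted p in the higher direction and 2 in the lower. *SMYD2*, which methylates histone and non-histone lysines, had 9.16, 10.4, 10.9, 12.4 and 12.4 in WT and 30.1, 23.8, 44.2, 58.3 and 24.2 in *SOX2* KO embryos. It rose without overlap, at a log2 fold change of 1.54 (SE 0.34, adjusted p by limma = 0.0069). *RIOX1*, a JmjC oxygenase of the nucleolus, fell from 67.0 ± 12.9 to 31.1 ± 7.63, and *JARID2*, a JmjC relative that lacks activity and accompanies Polycomb, from 282 ± 49.9 to 156 ± 28.5 (SD, n = 5 each). Their log2 fold changes were -1.10 and -0.85 (adjusted p by limma = 0.00791 and 0.00442), without overlap. *PRDM9*, a meiotic H3K4 methyltransferase, had at most 5 reads in any embryo (adjusted p by limma = 0.0394, DESeq2 0.0695, edgeR 0.0626). *HR*, a JmjC corepressor of skin, had at most 20 reads and overlapping groups (adjusted p by limma = 0.0398, DESeq2 0.345, edgeR 0.147).

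**Figure D5:**
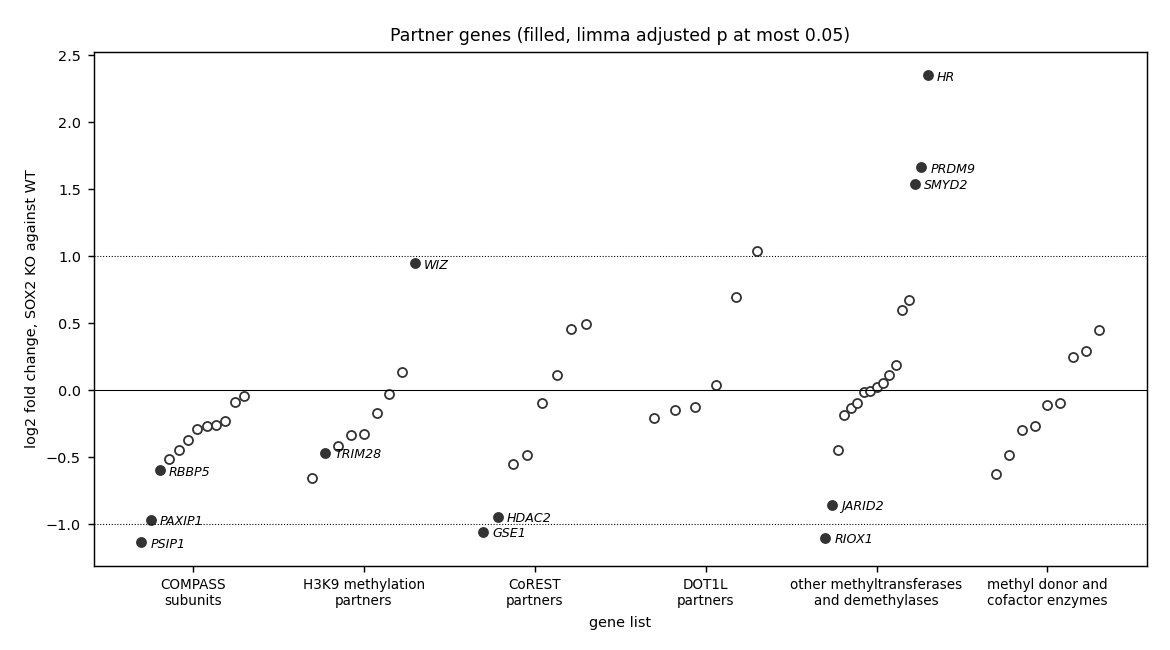
Log2 fold change, *SOX2* KO against WT, of the 61 related genes (vertical axis) in 6 lists (horizontal axis), sorted within each list, with filled points past an adjusted p of 0.05 and dotted lines at 2-fold. All 12 genes of the COMPASS list lie below 0, and *PSIP1*, *GSE1* and *RIOX1* lie below -1.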

How the data were processed

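RNA of 10 single bovine early blastocysts was sequenced after Smart-seq2, 5 WT and 5 *SOX2* KO. The authors used Trimmomatic for trimming, Hisat2 for mapping to ARS-UCD1.2 and featureCounts for counting, and the deposited values are a normalized signal, read counts divided by DESeq2 size factors. The annotation, strand setting and treatment of shared reads are not given in the sources used here. In each embryo every value was a whole multiple of 1 step (201120 values, tolerance 1e-06), which gave back the reads, and no gene had fewer than 11 reads in total.

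Columns were grouped by name, and ko1 to ko5 could not be tied to single labels. limma 3.58.1 (lmFit, eBayes with trend) was run in R 4.3.3 on log2(normalized read count + 1) over 20056 genes with a mean of at least 1, all 10 embryos, no covariate, with Benjamini-Hochberg adjustment over all of them. Called genes had an adjusted p up to 0.05 and moved 2-fold or more. DESeq2 1.42.0 and edgeR 4.0.16 on recovered reads, other scalings, pseudocounts, filters, weights, covariates and leaving out each embryo were alternatives, and leaving out nc2 and ko4 together was added after the values were seen. The tests were checked on simulated counts. Given by single values were members past the adjusted p, the 3 largest rises and 3 largest falls among other members with a mean of at least 10, and the member with the most reads of each role. *KMT5C*, *KDM5C* and *XIST* are given besides. Of related genes, those past the adjusted p were named, or the smallest p. The members and lists were chosen with earlier results of these data known. Reads carry no molecular identifiers, so counting precision is at best that of the reads. Coordinates are left out since the RefSeq gene table used for X linkage is of another assembly, ARS-UCD2.0.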

Additional observations from a re-analysis of the deposited data

Results flagged for a closer look

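In 6 of 86 groups of 5 embryos (43 members in 2 groups), 1 embryo lay far from the other 4, with a gap over 0.71 of the range of the group. For independent, normally distributed values chance gives about 4.3 such groups. The members were measured in the same embryos and are not independent, so this number is only a rough guide. In WT, *DOT1L* had 261.5 in nc3 and at most 110 in the others. In *SOX2* KO, the embryo ko4 stood high for 3 members, with 580.8 for *KDM1A* against at most 428, 1090 for *KMT2C* against at most 726 and 353.2 for *KMT2E* against at most 198. Within its group ko4 was the highest embryo for 30.2% of tested genes averaging 10 or more and for 23.3% of the members. *KDM1B* had 34.59 in ko5 and at most 23.4 in the other *SOX2* KO embryos. *SETD3* had 67.92 in ko1 and at least 132 in the others.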

How the results depend on the processing

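No paired analysis was possible because ko1 to ko5 could not be tied to replicate numbers in the labels. *KDM2B* kept its direction in all 22 alternatives and an adjusted p of at most 0.05 in 21, with log2 fold changes from -1.04 to -0.73, the exception being the *RN18S1* covariate (-0.94, adjusted p 0.0505). Of the 43 members, 36 passed the adjusted p in no alternative, and 27 kept the sign of their log2 fold change in all. Members past the adjusted p in the lower direction numbered 1, and 4 with equal totals, 4 with edgeR, 3 with DESeq2, 3 with quality weights, 2 without nc2 and ko4, 0 with the *RN18S1* covariate and 1 to 4 with 1 embryo left out. In the higher direction they numbered 0, and 1 with the median log ratio, 1 with quality weights (*KMT2D* in both) and 0 to 1 with 1 embryo left out (*KMT2D* without nc3, *KMT5C* without ko4). Members called lower numbered 0, and 1 with equal totals, 1 with edgeR and 0 to 1 with 1 embryo left out, and members called higher 0 to 1 with 1 embryo left out. Without ko4, *KDM3A*, *KDM5A* and *KMT5B* also passed the adjusted p, and without ko1 *KDM6A* did.

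Of all genes, 1792 were called higher, against 1002 with a pseudocount of 5, 629 with quantile normalization, 502 with a mean of at least 10, 3229 with quality weights, 137 with the *RN18S1* covariate and 771 (without ko5) to 3057 (without ko4) with 1 embryo left out. Called lower were 232, against 447 with quantile normalization and 83 with the covariate, and 176 to 267 with 1 embryo left out. Related genes called higher numbered 3, against 1 with a pseudocount of 5, quantile normalization, a mean of at least 10, DESeq2, edgeR or the covariate, and 1 to 5 with 1 embryo left out. Related genes called lower numbered 3, against 5 with equal totals, quality weights or without nc2 and ko4, 1 with the median log ratio or the covariate, and 3 to 5 with 1 embryo left out. The median log2 fold change of all genes moved from 0.25 to 0.14 with equal totals and to -0.02 with quantile normalization, and that of the members from -0.02 to -0.14 and 0.02.

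Of the 16 members that changed sign, *KDM6B* (down to -0.0814), *KDM1B* (down to -0.12), *SUV39H2* (down to -0.019), *SETD1B* (up to 0.0337) and *SETD9* (up to 0.0061) did so in 1 alternative each. Of those given by single values, 6 near 0 changed sign. *KMT2C* had 0.0425 with the median log ratio, 0.0044 with quantile normalization and -0.21 to 0.0563 with 1 embryo left out. *EHMT1* had 0.0858, 0.0429, 0.0402 with quality weights, 0.0378 without nc2 and ko4, and -0.0893 to 0.0581. *DOT1L* had -0.0582 with edgeR and -0.31 with the covariate. *SETD5* had -0.0658 with equal totals, -0.0538 with edgeR, -0.0184 with the covariate, and -0.0691 to 0.13. *KDM1A* had 0.0171 with the median log ratio and 0.0377 with the covariate. *KDM2A* had -0.0843 with equal totals, -0.0698 with edgeR, -0.17 with the covariate, -0.0606 without nc2 and ko4, and -0.0563 to 0.19. The causes were not tested. At these depths members with few reads, *KMT5C* and *KDM8*, are the least certain.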
